A study of Mus musculus with 7 samples.

Results

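Part of the listed crosslinks of the translation reinitiation factor DENR in NIH3T3 cells, a mouse embryonic fibroblast line, lay in 48 short, dense intergenic stretches of the mouse genome, described here. These held 24.1% to 44.8% of the sites of each DENR list, and 36.8% and 41.9% of the sites of the control lists made with IgG. The windows were selected on the measured sites. The genome (build mm10) was divided into fixed bins of 2000 nt, and bins with 10 or more listed crosslink sites in each of the 5 DENR lists were kept when the stretch from their first to last site overlapped no protein-coding gene. Mitochondrial DNA and ribosomal RNA (rRNA) loci had been left out. Of 7700 bins with a site in any list, 66 were dense, and 48 of these were intergenic; the other 18 overlapped protein-coding genes. The 48 windows held 13174 entries of the 7 lists. They lay on 19 chromosomes and are named by chromosome and a letter in genomic order, so that chr3-A is the first on chromosome 3.

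The sites came from iCLIP, in which UV light couples a protein to the RNA it touches and the end of the cDNA marks the crosslinked nucleotide. DENR was immunoprecipitated from cells transiently transfected with Denr in a FLAG-Venus-pLenti6 vector (DENR overexpressing, n = 3 libraries) or from untransfected cells with their own DENR only (non-transfected, n = 2). Control libraries were made with IgG (n = 2), and the sources used here do not say from which cells. The antibody recognizes DENR, so the overexpressing libraries contain tagged and endogenous protein together. The published methods give fewer dishes of cells for overexpression than for the non-transfected experiments. A difference between these groups therefore cannot be told apart from one of input. The overexpressing lists held 4012, 16137 and 10209 sites, the non-transfected lists 4324 and 7185, and the IgG lists 19 and 234. Each site has a score, its height as a whole number. The score is not scaled to depth, and the depth of the libraries is unknown.

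DENR works with its partner MCTS1 on the small ribosomal subunit. It helps ribosomes that have finished an upstream open reading frame to resume initiation further along the same mRNA. Ribosomes are built on rRNA, whose genes are multi-copy and largely missing from the assembled chromosomes. Small non-coding RNA genes such as miRNA genes can also have several near-identical copies. A miRNA gene encodes a hairpin from which a short mature RNA is cut.

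Sequence could be read at only a few of the windows, where a GENCODE transcript or a RefSeq gene start covered a site, and 2 of these stretches are printed because they are near-identical to each other and to an annotated gene in another dense window, so that crosslinks beside them can be compared by sequence. Letters in capitals are nucleotides listed as crosslink sites in any of the 7 lists. The stretches are annotated in GENCODE as the miRNA genes Gm24187 in window chr13-A (chr13:9834469-9834525, minus strand) and Gm24245 in window chr4-B (chr4:139338304-139338360, plus strand), 57 nt each. Whether they yield a short mature RNA was not tested.
Gm24187: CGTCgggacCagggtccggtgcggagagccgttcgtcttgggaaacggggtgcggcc
Gm24245: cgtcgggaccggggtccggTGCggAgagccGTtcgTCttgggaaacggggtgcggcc
Gm24187 and Gm24245 differ by G11A, where the first letter is the base of Gm24245, the number counts from the 5′ end, and the last letter is the base of Gm24187. Gm24245 is identical over its 57 nt to Gm24270, a miRNA gene in an intron of Peak1 (chr9:56223715-56223771, minus strand), where 1 of the 18 dense windows within genes lies.

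The sites of each window followed 1 strand. In 46 of the 48 windows no site lay on the other strand, and chr8-B and chr10-B together had 5 such sites; 22 windows were on the plus and 26 on the minus strand. First to last site spanned a median of 195 nt (range 31 to 1579), far below the bin size; 10 windows spanned at most 100 nt and 5 spanned more than 500 nt. Sites lay side by side: of 12827 pairs of neighbouring sites in the same DENR list and window, 65.4% were on adjoining nucleotides. In the median window, 46.6% of the nucleotides of the span were listed in at least 1 DENR list, with a range from 3.48% in chr17-A to 91.7% in chr6-C. Windows chr11-B and chr11-C adjoin at a bin edge, and chr14-B and chr14-C lie in adjoining bins, so that the 48 windows form 46 separate stretches when such neighbours are joined.

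Most windows lay in unannotated DNA. In GENCODE M21, 39 overlapped no gene of any kind, and 34 overlapped no gene in RefSeq either. The nearest protein-coding gene was 1.94 kb away for chr13-B (Hrh2, a histamine receptor), 2140 kb away for chr1-C (Cdh20, a cadherin) and 44.2 kb away in the median window. Of the 9 windows over a GENCODE gene, 3 overlapped miRNA genes and 6 lay in introns of lincRNA genes, long RNAs without a coding sequence. The lincRNA genes were Gm19951 (chr12-B), Gm26561 (chr17-C), 9330185C12Rik (chr1-D), D130009I18Rik (chr14-B and chr14-C) and AC166748.2 (chr19-A). No lincRNA exon was touched, and in 3 of the 6 windows the sites were on the strand opposite to the gene. RefSeq placed lncRNA genes over 11 windows, and it extends 1 protein-coding gene, Slc22a29, over chr19-A, which GENCODE leaves 33.4 kb away.

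A like share of every list fell into the 48 windows. The share of listed score was 34.8%, 32.1% and 34.3% in the overexpressing lists, 34.8% and 30.9% in the non-transfected lists. It was 38.1% and 33.6% with IgG. Over the 5 DENR lists it was 33.4% ± 1.79 (SD, n = 5). The share of sites was less even: 44.8%, 24.1% and 32.0% in the overexpressing lists and 38.2% and 34.3% in the non-transfected lists. It was 36.8% in IgG replicate 1 (exact 95% interval 16.3 to 61.6%) and 41.9% in IgG replicate 2 (35.5 to 48.5%); these intervals cover counting error only. The 3 groups overlapped in both measures. Site numbers chose the windows, so both shares are a description. The 18 dense windows over protein-coding genes held a similar 30.1% ± 2.22 of the score in the DENR lists (SD, n = 5).

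**Figure D1:**
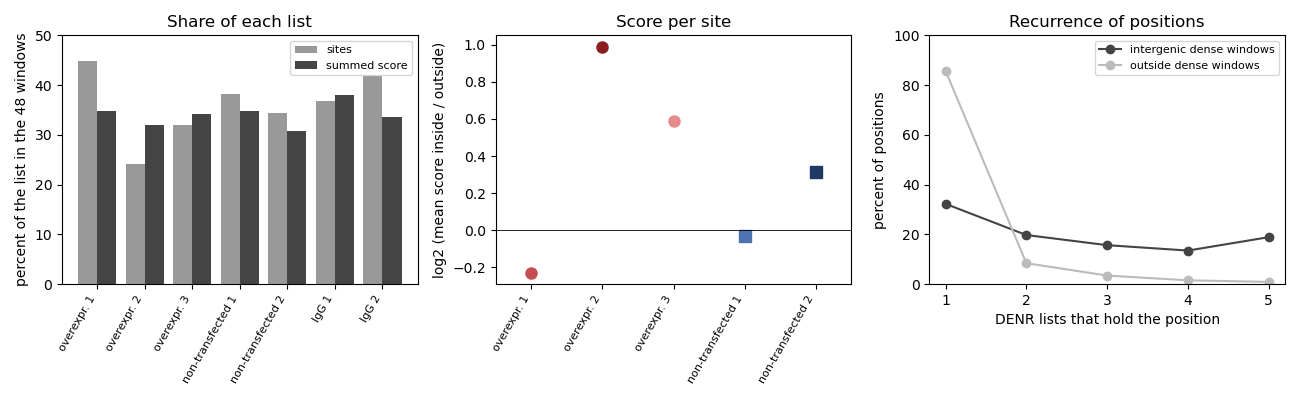
Left, percent of each list's sites (light bars) and summed score (dark bars) in the 48 windows; middle, log2 ratio of mean score per site inside to outside the windows in each DENR list; right, percent of positions held by 1 to 5 DENR lists. The dark bars are near one height in all lists, while the log2 ratio ranges from -0.23 to 0.99 within the overexpressing group alone.

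A site in a window was about as high as sites elsewhere in some lists and higher in others. Mean score per site inside the windows was 4.73, 12.9 and 9.80 in the overexpressing lists and 3.46 and 8.55 in the non-transfected lists. In the IgG lists it was 1.14 and 1.49. The score was compared with sites outside the windows, rRNA loci and mitochondrial DNA in the same list. The log2 ratio of mean score inside to outside was -0.23, 0.99 and 0.59 in the overexpressing lists and -0.03 and 0.32 in the non-transfected lists. The non-transfected values lay within the overexpressing range. The difference of 0.31 between group means (0.45 ± 0.62, n = 3, against 0.14 ± 0.25, n = 2; SD) was smaller than the spread of the overexpressing libraries (p = 0.6 in a two-sided exact permutation test, and 0.6 after adjustment). With 10 assignments of libraries to groups the smallest p is 0.2. The sites outside include the 18 windows over genes, which are high themselves. Without them the 5 ratios were 1.25, 2.22, 1.80, 0.68 and 1.76 on the log2 scale, so that each DENR list was then higher inside than outside. Only bins that failed the rule then remain outside, so these ratios are a description.

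The same nucleotides returned from list to list. Of 4895 positions listed in the windows by the DENR libraries, 924 (18.9%) were in all 5 lists and 1579 (32.3%) in 1 list. Outside the dense windows, 127 of 14513 positions (0.875%) were in all 5 and 12446 (85.8%) in 1. The dense windows over protein-coding genes were more recurrent, with 604 of 2139 positions (28.2%) in all 5 and 493 (23.0%) in 1. The windows were chosen for having sites in all 5 lists, so these shares describe them. Positions in all 5 lists had a mean score of 19.5 and those in 1 list a mean score of 1.39. All 7 window sites of IgG replicate 1 and all 98 of IgG replicate 2 were at nucleotides that a DENR list also held. Of these, 5 and 85 were at nucleotides in all 5 DENR lists.

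The score was uneven among the windows, in a similar order in each DENR list. Spearman's rho of the window shares, over 48 windows, ranged from 0.74 to 0.98 among the 10 pairs of DENR lists, which share the bins and the rule. The 12 leading windows held 73.8%, 67.7% and 68.4% of the score of all 48 in the overexpressing lists and 65.0% and 75.3% in the non-transfected lists. Of these 12, 10 ranked among the first 12 in every DENR list. The pair of non-transfected lists had the lowest rho. Among the 36 weaker windows, 22 had their lowest DENR share in non-transfected replicate 2 and 19 had their highest in non-transfected replicate 1.

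**Figure D2:**
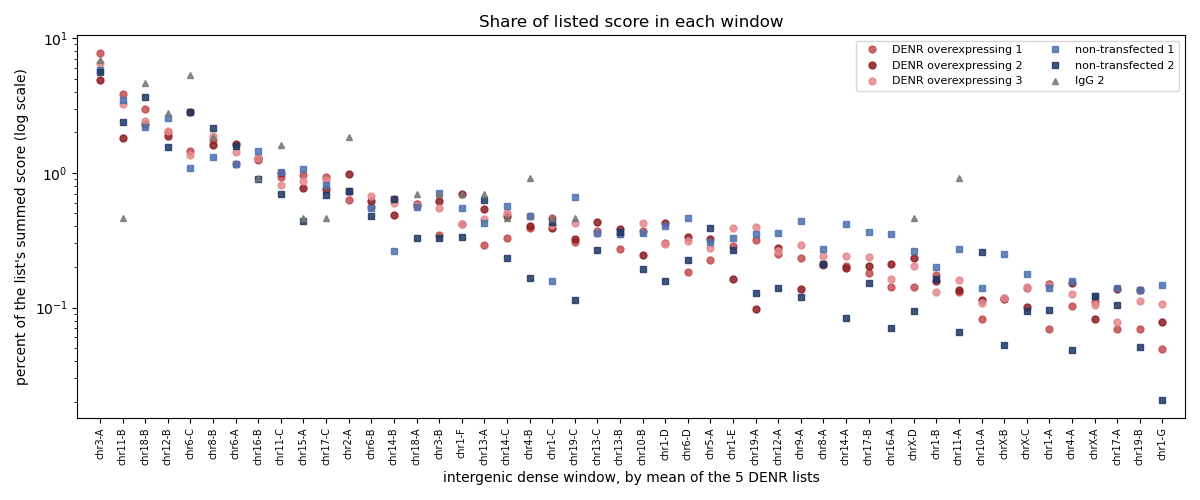
Percent of each list's summed score (log scale) in the 48 windows, ordered by the mean of the 5 DENR lists; circles are overexpressing, squares non-transfected and triangles IgG replicate 2, with windows at 0 not drawn. The points fall from a mean of 6.10% at chr3-A to 0.08% at the last window, and in the weaker windows the 2 non-transfected libraries often bracket the overexpressing ones.

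Window chr3-A (chr3:5860335-5860808, plus strand), 109 kb from Gm8797 and over no annotated gene, ranked first in all 5 DENR lists. It took 7.78%, 4.86% and 6.49% of the score in the overexpressing lists, 5.75% and 5.61% in the non-transfected lists. With IgG it took 19.05% and 6.91%. The overexpressing values enclosed the non-transfected ones. Its height was spread out: 145 of 372 positions were in all 5 DENR lists, and its leading nucleotide held 3.92% of its DENR score, the smallest such share of the 48 windows. It also had the most IgG sites, 4 and 23.

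The 2 windows next in order differed in shape. Window chr11-B (chr11:109011673-109012000, minus strand) lay over the RefSeq lncRNA Gm36876, 60.9 kb from Axin2. It took 3.82%, 1.83% and 3.23% in the overexpressing and 3.47% and 2.38% in the non-transfected lists. Its leading nucleotide held 4.56% of its DENR score. Window chr18-B, over the RefSeq lncRNA Gm30821, took 2.98%, 2.30% and 2.41% in the overexpressing and 2.20% and 3.65% in the non-transfected lists. Here 1 nucleotide led in every DENR list and held 39.8% of the score, with heights of 342, 1258, 1036, 180 and 933 and a height of 13 in IgG replicate 2. In neither window were the groups separate.

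The remaining 9 of the 12 leading windows took means of 0.76% to 2.01% of the DENR score. They were chr12-B (2.01% ± 0.363), chr6-C (1.91% ± 0.844), chr8-B (1.74% ± 0.321), chr6-A (1.40% ± 0.226), chr16-B (1.24% ± 0.204), chr11-C (0.889% ± 0.132), chr15-A (0.817% ± 0.239), chr17-C (0.814% ± 0.101) and chr2-A (0.757% ± 0.131; SD, n = 5 for each). The largest relative spread of these was at chr6-C (chr6:49236494-49236602, minus strand), with 1.46%, 2.84% and 1.37% in the overexpressing and 1.09% and 2.81% in the non-transfected lists. The second library of each group was thus the high one at chr6-C. Window chr6-A was the one leading window with no site in an IgG list.

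IgG sites fell on the strong windows. IgG replicate 1 had sites in 3 windows and replicate 2 in 21, and 26 windows had none in either. The windows with an IgG site had a median of 0.640% of the DENR score and those without had 0.229%. Those with the most IgG sites were chr3-A, chr6-C (13), chr12-B (11), chr18-B (7), and chr8-B and chr2-A with 5 each, all in replicate 2 apart from 4 at chr3-A. With 19 and 234 sites in the whole IgG lists, a weak window without an IgG site cannot be told from one too weak to be listed at this depth.

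Leading nucleotides were shared by most lists. The nucleotide with the highest mean share led in all 5 DENR lists in 10 windows and in at least 3 lists in 33. It held between 3.92% and 62.3% of the DENR score of its window, with a median of 13.5%. The most concentrated was chr14-C, on the strand opposite to D130009I18Rik, where the nucleotide at chr14:104716054 had heights of 52, 461, 294, 58 and 101 in the 5 DENR lists. Next came chr13-A with 53.1% at 1 nucleotide and chr13-C with 48.9%.

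Few windows separated overexpressing from non-transfected libraries. In 4 of 48 windows (8.33%) all overexpressing shares of score lay on one side of both non-transfected shares. Among all 160 bins with a site in every DENR list, 13 did so, or 8.12%, so the windows were at the background. In chr6-B, 266 kb from Cntnap2, the shares were 0.560%, 0.613% and 0.672% in the overexpressing lists against 0.548% and 0.476%. In chr18-A they were 0.564%, 0.590% and 0.575% against 0.554% and 0.326%. In chr10-A they were lower in the overexpressing lists, 0.082%, 0.114% and 0.109% against 0.140% and 0.260%, and in chrX-A they were 0.110%, 0.083% and 0.104% against 0.122% and 0.121%. In each of the 4, the gap between the nearest values of the groups was smaller than the SD of at least 1 group. Without overexpressing replicate 2 the count of windows was 11. The share over all bins was not taken in that setting, so this count has no background beside it. With a non-transfected library left out, a group of 1 library remains and separates easily, so no count is given.

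The rule's threshold was met narrowly by some windows. Nearest inside were chrX-A, chr1-G and chr1-A, each with 10 sites in its poorest list (overexpressing replicate 1), and between 11 and 80 in the other 4 DENR lists. Just outside were an intergenic bin on chromosome 18 with 9 sites in non-transfected replicate 1, a bin at chr1:136364883-136365060 with 9 in overexpressing replicate 1, and a bin at chr5:143154696-143154982 with 8 in that list.

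The fine crosslink profiles of some windows resembled those of others. For each of the 66 dense windows a profile was made of log2(1 + summed score) per nucleotide, from 5′ to 3′ on its strand, minus its moving average over 11 nt, which leaves only the fine structure. Each pair with at least 1 intergenic window was slid along each other, and Pearson's r was taken over the nucleotides listed in either window, at least 40 of them. A smaller minimum also held for each window of the pair. Pairs with no shift that met both minimums were not compared. The best shift was chosen on the 3 overexpressing lists. A pair was called matching when r was at least 0.5 and led the next best shift, more than 2 nt away, by at least 0.15; r was then taken at the same shift in the 2 non-transfected lists. These cover the same windows, whose profiles are themselves similar between the groups, so this second r is a description and no independent check. All r values here are over nucleotides of pooled lists, described with no test, since the windows share the libraries and any base preference of crosslinking.

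Of 1806 pairs, 53 (2.93%) matched, 22 of them between 2 intergenic windows and 31 between an intergenic window and a window within a gene. Without overexpressing replicate 1, 2 or 3 there were 47, 30 or 35 matching pairs, of which 44, 25 and 30 were among the 53 at the same shift. Chosen on the non-transfected lists, 5 pairs with 7 intergenic windows matched. The 53 pairs involved 33 of the 48 intergenic windows (68.8%), which held 82.6% to 87.7% of the windows' score in the DENR lists, and 14 of the 18 within genes. The minimums favour windows with many listed nucleotides, so this share of score is a description. In the overexpressing lists r was 0.50 to 0.78 (median 0.58), while the next best shift gave a median of 0.30. In the non-transfected lists, r at the chosen shift was above 0.2 in 46 of 52 matching pairs (88.5%; median 0.36, range -0.15 to 0.63). Among 1631 pairs that did not match it was above 0.2 in 29.9% (median 0.11). The highest r among pairs with a sufficient lead but under the threshold was 0.50 (0.4997 before rounding). For comparison, a window's own profile correlated between overexpressing and non-transfected lists with a median r of 0.73 (range 0.28 to 0.92, 48 windows).

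**Figure D3:**
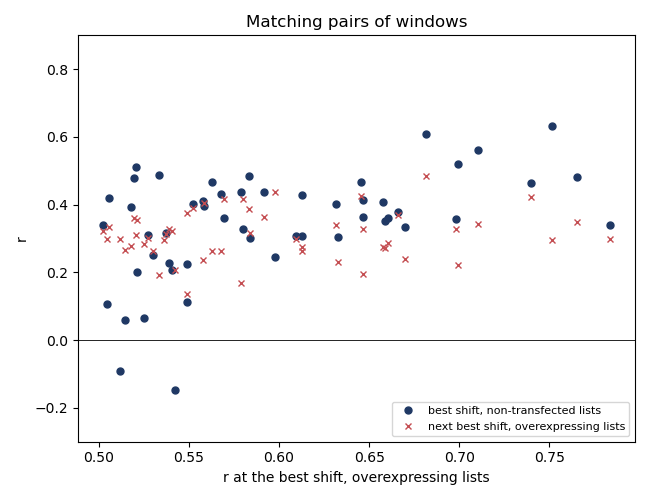
Each matching pair of windows by its r at the best shift in the overexpressing lists (horizontal), against r at the same shift in the non-transfected lists (blue circles, 52 pairs) and r at the next best shift in the overexpressing lists (red crosses, 53 pairs). The circles have a median of 0.36 and reach 0.63, and the 2 negative circles have an r of 0.51 and 0.54 in the overexpressing lists.

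The shifts of matching pairs added up within sets of 3 windows, though most of these sets share windows and pairs. In 13 sets of 3 windows all 3 pairs matched, and in each of the 13 the shift from the first to the second plus that from the second to the last equalled the shift from the first to the last, to the nucleotide. The set of chr8-B, chr14-C and chr18-B shares no window with the others, each of which includes the window in Tmem56, Il31ra or Trpm3. All pairs were chosen on the same overexpressing profiles, so that 2 shifts of a set largely imply the third. The closing is thus a description and no independent check. Without overexpressing replicate 1, 2 or 3 there were 8, 3 or 4 such sets, and each of these closed to the nucleotide as well; there was none at an r of at least 0.6 or when matches were chosen on the non-transfected lists, and at an r of at least 0.4, 23 of 26 closed. Joined by matches, the windows formed 7 groups. A chain of matches was enough to join windows, so members of a group need not match each other. For example, chr3-A and chr8-B are in the largest group but were not a matching pair. The groups were formed at the thresholds above only, and 21 of the pairs had an r of at least 0.6. The largest had 32 windows, 21 of them intergenic, with chr3-A, chr8-B, chr15-A, chr17-C, chr2-A and both chromosome 18 windows among them and the windows in Trpm3, Tmem56, Il31ra, Spata5, Cmss1 and Lars2 among the others. The next held chr6-C, chr16-B and chr1-F with the window in Gphn, another held chr11-B, chr3-B and chr10-A, and the other 4 were pairs. One of these joined chr12-B with chr14-B.

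In the set made of intergenic windows only, chr8-B, chr14-C and chr18-B, r was 0.71 for chr8-B with chr14-C over 70 nt (0.56 in the non-transfected lists), 0.75 for chr14-C with chr18-B over 55 nt (0.63) and 0.56 for chr8-B with chr18-B over 78 nt (0.47). Within their common stretch of 55 nt, every nucleotide was listed in chr8-B and in chr18-B. The 40 nucleotides listed in all 3 windows are therefore simply those listed in chr14-C. The shifts were chosen on the scores of the overexpressing lists, which tends to lay high nucleotides on each other. It is thus no separate result that the same aligned nucleotide was the highest of those 40 in each window. Its heights over the 5 DENR lists were 34, 230, 160, 11 and 136 in chr8-B, 52, 461, 294, 58 and 101 in chr14-C, and 342, 1258, 1036, 180 and 933 in chr18-B. It was also listed in IgG replicate 2 in each, with heights of 2, 2 and 13. This aligned nucleotide was higher in chr18-B than in the other 2 windows in every DENR list. The main peak of chr8-B lay beyond the stretch common to all 3: aligned nucleotide 159 had heights of 79, 333, 282, 25 and 202 there. The listed block of chr18-B ended just before it, at nucleotide 156, with heights of 15, 57, 61, 8 and 25. Beyond that, chr18-B had only nucleotides 283, 285 and 286, listed in overexpressing replicate 2 alone with heights of 1 or 2. Its lack of sites at nucleotides 157 to 161 is thus the end of its listed block.

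**Figure D4:**
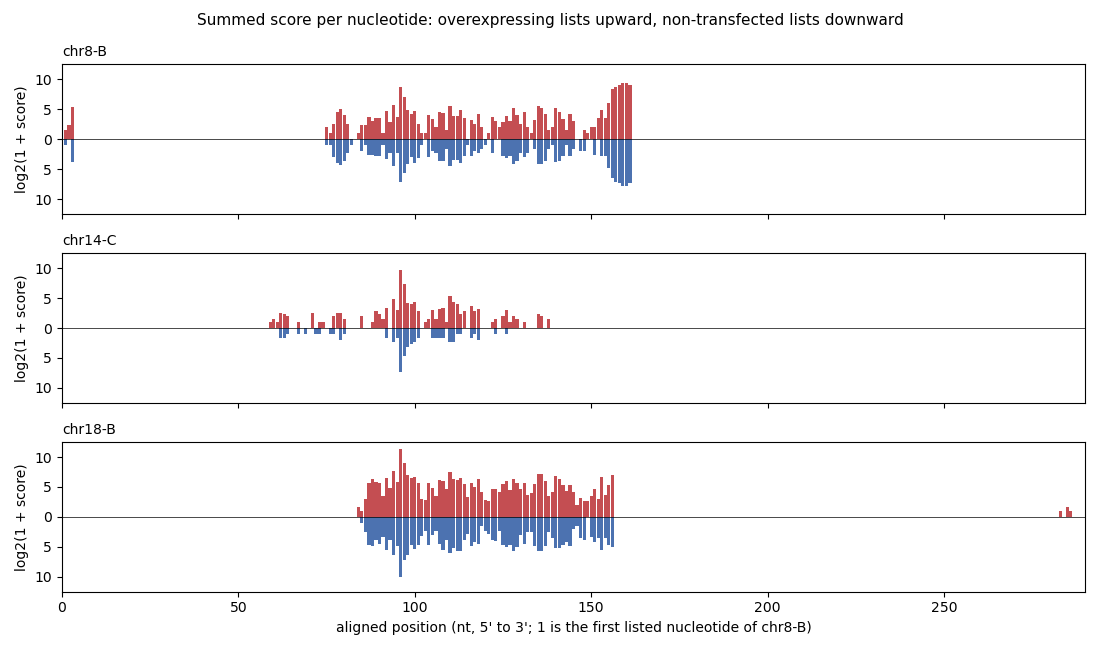
Summed score per nucleotide, as log2(1 + score), of chr8-B, chr14-C and chr18-B after alignment by their best shifts, with the 3 overexpressing lists upward and the 2 non-transfected lists downward. The highest bar of the common stretch stands at aligned position 96 in each of the windows, and several lower peaks of the common stretch coincide as well. The shifts were chosen on the overexpressing heights shown here.

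The longest match was between chr15-A (chr15:86194743-86195307, plus strand) and the window in an intron of Cmss1, with 481 nt of overlap. There r was 0.70 over 247 nucleotides, 0.22 at the next best shift and 0.52 in the non-transfected lists. The highest r of all, 0.78 over 59 nt, was between chr18-A and the window in an intron of Trpm3 (0.34 in the non-transfected lists). Window chr3-A matched the Trpm3 window too (0.74, and 0.47 in the non-transfected lists) and the window in Tmem56 (0.68 over 154 nt, and 0.61).

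Matching windows did not hold the same numbers. At aligned nucleotides listed in both windows of a matching pair by the same DENR library, 726 of 5609 heights (12.9%) were equal; with the windows 1 nt out of register, 722 of 5070 (14.2%) were. The heights at matching positions were therefore no more often equal than at neighbouring ones. Scores of 1 made up 30.7% to 47.4% of the window sites in the DENR lists, so heights can be equal in any register. Whether windows share reads was not tested. How reads that align to several places were handled is not given in the sources used here. No genome sequence was at hand, so the matches rest on crosslinks alone. Sequence was compared only for the stretches printed above, and no comparison of them or of the windows with rRNA is given.

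Only at the annotated miRNA genes could a match be set beside sequence. The best shift between chr13-A and the Peak1 window placed them 196 nt apart in window coordinates, and the alignment of Gm24187 with Gm24270 gave the same 196 nt. This pair had an r of 0.44 over 84 nt (0.22 at the next best shift, 0.36 in the non-transfected lists), which is under the threshold for a match. Counted from the first nucleotide of each miRNA gene, 74 nucleotides were listed by DENR libraries in chr13-A and 72 in the Peak1 window in the 89 nt from 73 to 161, and 63 were listed in both. These nucleotides lie after the annotated genes. Most of the 89 nt were listed in each window, so a high number listed in both would occur without any match and was not tested. Nucleotide 95 had heights of 2, 19, 15, 2 and 8 in chr13-A and 6, 30, 30, 1 and 16 in the Peak1 window over the 5 DENR lists. The stretch after Gm24245, in chr4-B, did not show this peak: nucleotide 95 was not listed there, and the sites from 74 to 113 had heights of 1 or 2.

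The 2 windows differed in other respects. The main peak of chr13-A, nucleotide 154 (chr13:9834372), had heights of 39, 443, 243, 39 and 212, whereas nucleotide 154 of the Peak1 window had a height of 1 in overexpressing replicate 2 and was otherwise not listed. Nucleotide 108, the highest of the Peak1 window, had heights of 9, 60, 47, 2 and 69 there and 0, 4, 12, 1 and 4 in chr13-A. Inside the near-identical 57 nt, none was listed in the Peak1 window. In chr13-A nucleotides 1 to 4 and 10 were listed, and nucleotide 2 had heights of 45 and 2 in overexpressing replicates 2 and 3 and of 7 in non-transfected replicate 2; none was listed from 11 to 57. Outside the dense windows, the identical copy Gm23935 (chr16:11144125-11144181, plus strand) had no listed site in any DENR list. Less similar relatives did: Gm25911 (96.5% identical to Gm24245, on chromosome 1) had 0, 9, 5, 1 and 0 sites, and Gm23388 (94.5%, on chromosome 8) had 8, 16, 14, 11 and 8. In Gm24245 itself, shown above with its sites in capitals, the 8 listed nucleotides between 20 and 37 came from overexpressing replicate 3 alone, which had a height of 9 at nucleotide 31. The other miRNA gene of chr4-B, Gm25732 (60 nt), had no listed nucleotide.

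**Figure D5:**
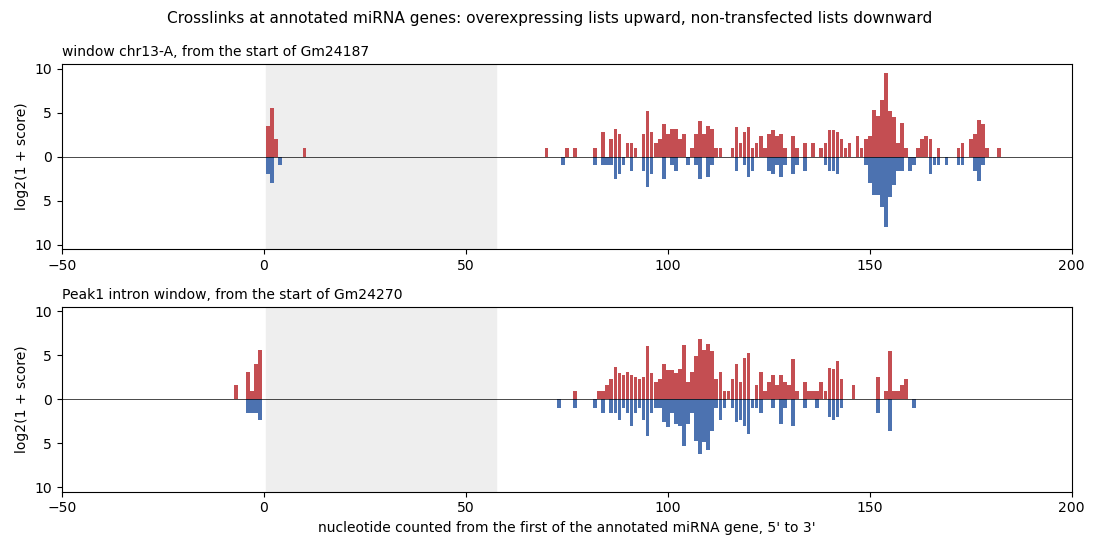
Summed score per nucleotide, as log2(1 + score), counted from the first nucleotide of Gm24187 in chr13-A and of Gm24270 in the Peak1 window; overexpressing lists point upward and non-transfected lists downward, and grey marks the annotated gene. The annotated genes hold sites only at nucleotides 1 to 4 and 10 of Gm24187, and peaks such as nucleotide 95 coincide after them.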

How the data were processed

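The deposited lists of 7 iCLIP libraries were used. The authors mapped reads with Bowtie (Bowtie2 in the submitters' processing notes) to mm10, allowing mismatches, collapsed cDNAs by unique molecular identifier and start, and called sites in each library with iCount peaks (15-nt flank). The deposited score is signed by strand, and its absolute whole-number value is the height of the site; only sites past the false discovery threshold are listed. Track lines state that regions were treated separately, the published methods that they were treated as one, and 1 list has no track line. Sites were assigned to bins and to GENCODE M21 and RefSeq genes of the same build; rRNA loci were annotated rRNA genes plus an incomplete pre-rRNA repeat on chromosome 17.

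The windows and lists were chosen with earlier results of these data known, and the profile comparison and its thresholds after the data were seen. Windows were named if they were among the 12 highest mean shares or the 5 with most IgG sites, nearest to the threshold, separating the groups, or over a non-coding gene; windows in matching pairs were named in addition. Group means were compared by exact permutation tests with Benjamini-Hochberg adjustment over 2 tests. The second test, of the base at the crosslink site, and 1 window over a non-coding gene rest on sequence that is not reported here; the counterpart of that test against IgG was not run, and sequence relatives could be sought only for readable stretches, as no genome sequence was used here. Nothing says that libraries came from separate cultures, so p-values measure the spread between libraries, which may be technical. Intervals are exact Clopper-Pearson at 95%. Functions were tested on simulated data. Software was blastn 2.17.0 and Python 3.11.15 with pandas 2.3.3, scipy 1.17.1 and numpy 2.4.6. Alternatives covered the bin grid, site and score minimums, annotation, merging of sites, weights, base position, denominators, left-out libraries and the replicate block.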

Additional observations from a re-analysis of the deposited data

How the results depend on the processing

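The number of intergenic dense windows was 27 with 20 sites in place of 10 and 24 with sites of a score of at least 2, both stricter by construction; it was 47 on a grid shifted by 1000 nt, 39 without any annotated gene, and 48 to 52 when 1 DENR library was left out of the rule. The difference in log2 score inside over outside the windows kept its sign under every alternative run, from 0.04 to 0.65 when 1 library was left out; no p in this design can fall under 0.05, so the test says nothing of its stability.

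Windows whose groups did not overlap numbered 3 by share of sites and 5 with rRNA and mitochondrial score left out of the denominator. They numbered 6, 11 and 6 without overexpressing replicate 1, 2 and 3. The share over all bins was taken in the main setting only, so these counts have no background beside them. Intergenic windows with a matching profile numbered 33 and fell to 19 at r of at least 0.6, to 7 when the matches were chosen on the non-transfected lists (5 pairs, each at the shift found with the overexpressing lists) and to 18 without overexpressing replicate 2, the longest list; the range over left-out overexpressing libraries was 18 to 32. They numbered 42 at r of at least 0.4, where 23 of 26 sets of 3 closed to the nucleotide, 22 with a lead of 0.25 and 31 with a moving average of 21 nt, under which 5 of 7 sets closed. These alternatives and the removal of windows over genes from the outside were chosen after seeing the data.

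Replicate numbers are shared by the groups, but no source ties them to a batch. Over the 48 windows, departures from the mean of the group correlated by -0.12 for replicates 1 and 0.13 for replicates 2 of overexpressing and non-transfected libraries. With 2 non-transfected libraries their departures mirror each other, so these values are not separate checks. Overexpressing replicate 3, which has no non-transfected namesake, correlated by 0.36 with non-transfected replicate 1 and by -0.36 with replicate 2. With the replicate block the difference in log2 score was 0.24 (exact sign-flip test on 2 pairs, p = 1).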
